A study of Mus musculus with 5 samples.

Results

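The genes described here are 47 genes of ribosome biogenesis, given as a list of symbols and mapped to the gene identifiers of the deposited files. All 47 were listed in the files, among 17057 genes with an entry in at least 1 library, and all 47 were among the 12576 genes with enough counts to be tested. Their levels were measured by RNA-Seq in bone marrow–derived macrophages (BMDMs) of Balb/c mice after 48 hours of coculture with 4T1 cells, a mouse mammary carcinoma line kept apart from the macrophages by a porous membrane. In 2 libraries the cancer cells were WT, and in 3 they were *Adam17*-/-. *Adam17* encodes a protease that releases membrane-bound growth factors and cytokines from the cell surface, and it was deleted in the cancer cells, not in the macrophages that were sequenced. The 3 *Adam17*-/- libraries carry 1 knock-out designation, so that an effect of *Adam17* and other features of that line cannot be told apart. The labels number the libraries of a group as repeats and do not say whether these came from separate cultures or mice, so the p-values measure the spread between these libraries, which may be technical.

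Ribosomes are built in the nucleolus. RNA polymerase I transcribes a long precursor of the ribosomal RNAs there, small nucleolar RNA–protein particles (snoRNPs) modify it at chosen nucleotides, and a large set of assembly factors cut, fold, and load it with ribosomal proteins to give a small and a large subunit. The assembly factors join and leave in order and are not part of the finished ribosome. The genes of this machinery are known as a target program of the transcription factor MYC, and their output sets how much protein a growing cell can make. The libraries were prepared from polyadenylated RNA, so the data give the mRNAs of these factors and not the ribosomal RNA or the small nucleolar RNAs themselves.

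Of the 47 genes, 31 were lower in BMDMs cocultured with *Adam17*-/- 4T1 cells, 0 were higher, and 16 did not pass the test (edgeR's quasi-likelihood test, Benjamini-Hochberg adjusted p of at most 0.05 across the genes tested). Over all genes tested, 16.8% were lower and 14.9% were higher. The changes were moderate. The median log2 fold change of the 47 genes was -0.38, against 0.01 over all genes, and the largest fall was 46.4%, in *Ddx21*. At an unadjusted p under 0.05, 0 of the 47 genes were higher, and DESeq2 found 0 as well. No gene of the set fell by 1 or more on the log2 scale, a size of change that 0.867% of all genes reached among those lower. All 47 genes are shown in the plot of fold changes by role.

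**Figure D1:**
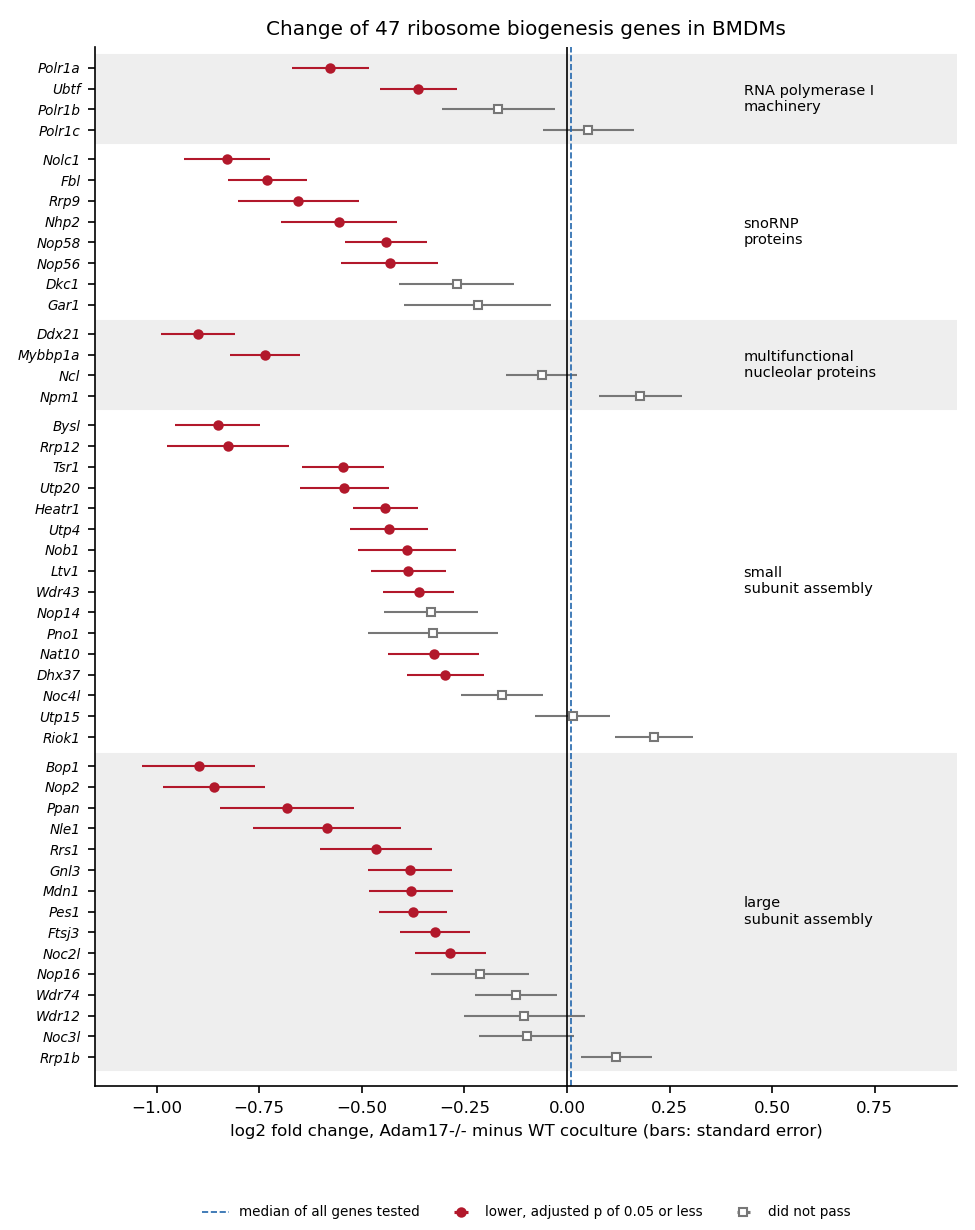
Log2 fold change (x axis, *Adam17*-/- minus WT coculture) of the 47 genes, 1 per line and grouped by role, with bars of 1 standard error. Filled circles mark the 31 genes that were lower, open squares mark the 16 that did not pass, and 42 of the 47 points lie below 0, while the dashed line gives the median of all 12576 genes tested (0.01).

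The libraries held 14658694 to 20788373 expected counts. The floor was set at 3 counts, or 0.157 to 0.197 CPM (TMM-normalized counts relative to the library total), and the 47 genes lay far above it. In these bulk samples, fewer cells of a type and less RNA per cell cannot be told apart, and several marker lists moved with the groups. Of 10 macrophage markers, 7 were lower and 0 were higher (0 also at an unadjusted p under 0.05 and by DESeq2), and they summed to 28882 to 29601 CPM in the WT libraries, against 18507 to 20505 CPM in the *Adam17*-/- libraries. Of 11 markers of granulocytes and their precursors, 8 were higher, and their sum was 328 to 397 CPM against 1137 to 1316 CPM. Of 4 nuclear-retained transcripts tested, 4 were higher, and the 5 listed summed to 7410 to 7708 CPM against 11805 to 13304 CPM. Of 5 dendritic cell markers tested, 3 were higher, and the 7 listed summed to 27.8 to 40.5 CPM against 52.9 to 68.7 CPM. Of 5 fibroblast markers tested, 2 were higher, and the 6 listed summed to 34.9 to 41.1 CPM against 40.6 to 121 CPM. Of 11 epithelial markers that the cancer cells could bring, 2 had enough counts to be tested. Their log2 fold changes were 0.14 and 1.24, and 1 of them was higher. The 10 listed in the files summed to 52.5 to 68.7 CPM against 124 to 133 CPM. *Epcam* and *Krt8* of that list were at or near 0, with 0 or 1 count of *Epcam* and 1 to 3 counts of *Krt8* in a library. The part of these shifts in the results below was not tested.

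The promoter sequences of the set were described as well. The 47 genes were chosen with earlier results of these data known, and their machinery is a known target program of MYC. The shares below may therefore not be independent of that choice. The E-box CACGTG is the 6-base sequence that dimers of MYC and its partner MAX bind, and it reads the same on both strands. RefSeq promoter windows (build GRCm38.p6, 250 bases before to 50 bases after the annotated start) were at hand for 42 of the 47 genes, and 11 of them (26.2%) held this sequence. It was present in 8.09% of the windows of 27025 genes, in 11.7% of those of 10063 genes tested, and in 18.0% of those of 89 other ribosome assembly genes. In 10 of the 11 windows it lay in the 50 bases after the start. That stretch held it in 23.8% of the 42 genes, in 1.28% of all genes, in 1.86% of genes tested, and in 6.74% of the other assembly genes. The median GC content of the windows was 59.2% for the 42 genes and 60.3% for the genes tested.

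The windows with the sequence belonged to 10 of 27 genes that were lower (37.0%) and to 1 of 15 that did not pass (6.67%). The split is by adjusted p and not by size of change. *Pno1*, which did not pass, had a log2 fold change of -0.33, a larger fall than that of *Noc2l* (-0.28), which was lower. These shares are descriptions with no test, a match does not show that the sequence is bound, and the start sites are those of the annotation. The following stretches of 30 bases, on the strand of each gene with the E-box in capitals, show its place in the 4 genes with a window match that are described in detail below, in *Nle1* and *Utp20*, 2 further genes that were lower, and in *Pno1*, the gene with a match that did not pass.
Nop2, chr6:125131811-125131840, plus strand, first base of the E-box 60 bases before the start: gtgtccctggatCACGTGtgttccggtgcc
Mybbp1a, chr11:72441347-72441376, plus strand, base 41 after the start: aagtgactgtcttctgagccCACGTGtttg
Tsr1, chr11:74898092-74898121, plus strand, base 25 after the start: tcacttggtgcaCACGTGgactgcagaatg
Ltv1, chr10:13193092-13193121, minus strand, base 29 after the start: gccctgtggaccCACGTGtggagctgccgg
Nle1, chr11:82908355-82908384, minus strand, base 24 after the start: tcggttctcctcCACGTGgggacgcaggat
Utp20, chr10:88826765-88826794, minus strand, base 38 after the start: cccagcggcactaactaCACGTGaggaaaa
Pno1, chr11:17211540-17211569, minus strand, base 38 after the start: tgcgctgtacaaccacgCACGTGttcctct
The remaining 4 genes with a match, *Utp4*, *Wdr43*, *Pes1*, and *Mdn1*, were lower and had it 3 to 39 bases after the start.

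**Figure D2:**
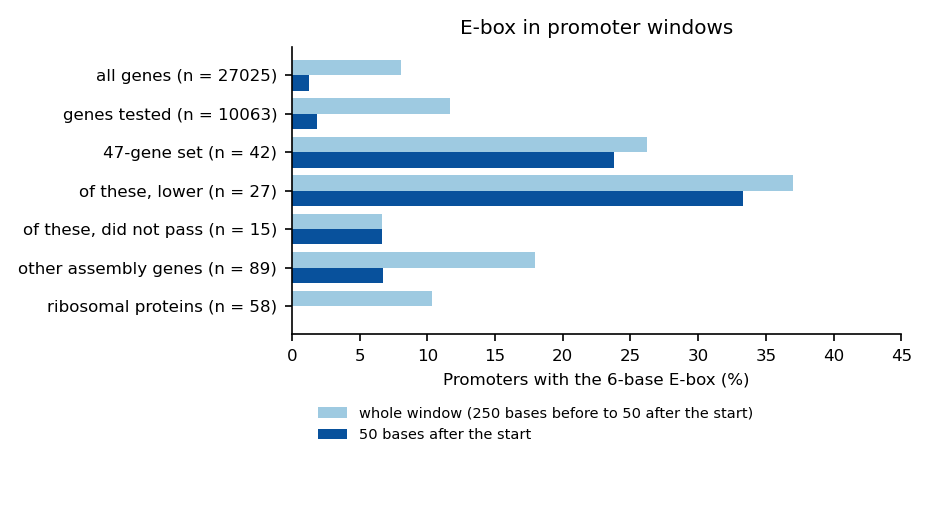
Share of promoter windows (x axis, percent) that hold the E-box in each group of genes (y axis, with the number of windows), for the whole window in light blue and for the 50 bases after the start in dark blue. The 42 windows of the 47-gene set hold it in 26.2% and 23.8%, against 11.7% and 1.86% of the genes tested and 10.3% and 0 of the ribosomal protein genes.

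RNA polymerase I is the first step of the pathway, and 2 of its 4 genes in the set were lower, beside 16.8% of all genes. Without *Adam17*-/- replicate 1 or 3, 1 was lower, where 7.42% and 9.97% of all genes were. The median of the 4 was -0.26 on the log2 scale, and -0.10 and -0.42 without WT replicates 1 and 2. *Polr1a* encodes the largest subunit of the enzyme and holds part of its active site. It was at 68.0 and 62.4 CPM in the WT libraries and at 41.6, 42.1, and 47.4 CPM in the *Adam17*-/- libraries. Each *Adam17*-/- library lay below both WT libraries, and the log2 fold change was -0.58 ± 0.0939 (SE, adjusted p = 0.00234 from edgeR), a fall of 33.0%.

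*Ubtf* encodes the factor that binds along the ribosomal DNA and recruits the polymerase, and of the 4 it had the highest level per length (mean FPKM 19.0). It was at 108 and 92.8 CPM in the WT libraries and at 76.7, 82.6, and 75.5 CPM in the *Adam17*-/- libraries. These groups did not overlap either. The log2 fold change was -0.36 ± 0.0941 (SE, adjusted p = 0.0178 from edgeR), and it did not pass in 7 of 15 other analyses at the same threshold, with adjusted p up to 0.174.

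*Polr1b* encodes the second largest subunit. It was at 24.6 and 18.2 CPM in the WT libraries and at 18.3, 20.4, and 18.6 CPM in the *Adam17*-/- libraries. WT replicate 2 lay below all 3 *Adam17*-/- libraries, so that the groups overlapped, and the log2 fold change was -0.17 ± 0.137 (SE). The sign rested on WT replicate 1, since it was 0.06 without that library and -0.37 without WT replicate 2. *Polr1c*, a subunit shared with RNA polymerase III, had a log2 fold change of 0.05 ± 0.111 (SE) and overlapping groups.

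The proteins of the snoRNPs had the lowest median of the 5 roles, with a log2 fold change of -0.50 over 8 genes, of which 6 were lower and 0 higher (0 also at an unadjusted p under 0.05 and by DESeq2). The median was -0.45 without WT replicate 1. The count of lower genes was 3 without *Adam17*-/- replicate 1 or 3, and 4 with library size only. Over all genes the lower share went from 16.8% to 7.42% and 9.97% without *Adam17*-/- replicates 1 and 3 and to 8.56% with library size only. Box C/D particles place methyl groups on ribosomal RNA, and box H/ACA particles turn uridine into pseudouridine. *Fbl* encodes fibrillarin, the methyltransferase of the box C/D particles. It was measured at 52.8 and 46.4 CPM in the WT libraries and at 28.5, 29.9, and 31.3 CPM in the *Adam17*-/- libraries. The gap between the groups was wider than the spread within either of them, and the log2 fold change was -0.73 ± 0.0957 (SE, adjusted p = 0.000962 from edgeR).

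The other core proteins of the box C/D particles were lower as well. *Nop58* and *Nop56*, which form the scaffold that holds fibrillarin, had log2 fold changes of -0.44 and -0.43, and each passed, though in 10 and 7 of the 15 other analyses (adjusted p up to 0.0797 and 0.104). *Rrp9* encodes a protein of the U3 particle, which guides the first cuts of the precursor rather than a modification. It was low, at 10.2 and 9.20 CPM in the WT libraries and 6.90, 5.92, and 5.61 CPM in the *Adam17*-/- libraries. The groups did not overlap, and the log2 fold change was -0.65 ± 0.147 (SE, adjusted p = 0.00950 from edgeR).

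Among the genes of the box H/ACA particles, 1 of 3 passed. *Nhp2*, a core protein that binds the RNA, fell by 0.55 on the log2 scale (adjusted p = 0.0162 from edgeR) and passed in 11 of the 15 other analyses. *Dkc1*, the pseudouridine synthase itself, had a log2 fold change of -0.27 ± 0.141, and *Gar1*, a further core protein, of -0.22 ± 0.179 (SE), and neither passed. *Nolc1*, a phosphoprotein that shuttles between nucleolus and cytoplasm and binds snoRNPs of both kinds, showed the largest change of the role. It was at 49.6 and 41.1 CPM in the WT libraries and at 24.7, 25.3, and 26.5 CPM in the *Adam17*-/- libraries. The *Adam17*-/- libraries lay close together and well below both WT libraries, with a log2 fold change of -0.83 ± 0.104 (SE, adjusted p = 0.000837 from edgeR).

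The 4 abundant nucleolar proteins of several functions split, with 2 lower and 2 that did not pass, where 16.8% of all genes were lower. *Ddx21*, an RNA helicase that acts in ribosomal RNA transcription and processing, had the largest fall of the 47 genes. It was measured at 86.7 and 90.6 CPM in the WT libraries and at 43.6, 49.9, and 49.2 CPM in the *Adam17*-/- libraries, with means of 88.7 ± 2.74 (SD, n = 2) and 47.6 ± 3.44 (SD, n = 3). The log2 fold change was -0.90 ± 0.0898 (SE, adjusted p = 0.000381 from edgeR). An exact permutation test of this gene alone gave a one-sided p of 0.1, the smallest that 2 against 3 libraries allow, and a two-sided p of 0.2 by doubling. The adjusted p therefore rests on the variation edgeR pools over genes.

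*Mybbp1a* encodes a nucleolar protein first known for binding MYB. It was at 151 and 132 CPM in the WT libraries and at 85.2, 84.7, and 85.5 CPM in the *Adam17*-/- libraries. The 3 *Adam17*-/- libraries were nearly equal, and the log2 fold change was -0.74 ± 0.0856 (SE, adjusted p = 0.000605 from edgeR). In contrast, *Ncl*, which encodes nucleolin, was at 182 and 208 CPM against 181, 191, and 188 CPM, with a log2 fold change of -0.06 ± 0.0858 (SE).

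*Npm1*, which encodes nucleophosmin, a histone chaperone of the nucleolus and the most highly expressed of the 47 genes per length (mean FPKM 127), did not pass. It was at 138 and 172 CPM in the WT libraries and at 180, 174, and 172 CPM in the *Adam17*-/- libraries, and the log2 fold change was 0.18 ± 0.102 (SE, adjusted p = 0.206 from edgeR). The result rested on WT replicate 2, since *Npm1* passed as higher without it (log2 fold change 0.34, adjusted p = 0.00257). The files list 2 *Npm1* transcripts, and these were at different levels in the groups. The transcript of 1307 bases was at 67.3 and 70.4 CPM in the WT libraries and at 50.7, 54.7, and 52.3 CPM in the *Adam17*-/- libraries. The transcript of 1440 bases was at 70.5 and 102 CPM in the WT libraries and at 130, 119, and 119 CPM in the *Adam17*-/- libraries. The share of the longer transcript in the expected counts of *Npm1* was 51.2% and 59.1% after WT coculture and 68.6% to 71.9% in the *Adam17*-/- libraries, so that the groups did not overlap. The shares were not tested, and they rest on how the authors' software divided reads that fit both transcripts.

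**Figure D3:**
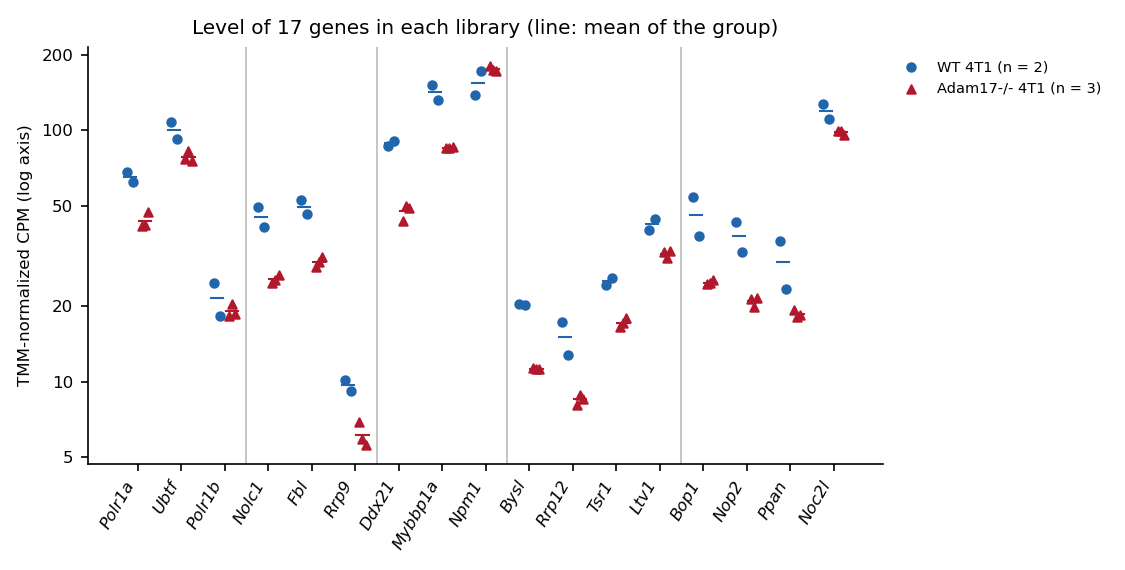
Level of the 17 genes with values per library (y axis, TMM-normalized CPM on a log axis), ordered by role from RNA polymerase I at the left to large subunit assembly at the right. Circles are the 2 WT libraries, triangles are the 3 *Adam17*-/- libraries, and short lines are group means, and the groups overlap for *Polr1b* and *Npm1* but not for the 15 genes that were lower.

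Factors of the small subunit made up 16 of the 47 genes, of which 11 were lower, 0 were higher (0 also at an unadjusted p under 0.05 and by DESeq2), and 5 did not pass. The lower genes numbered 5, 6, and 6 without *Adam17*-/- replicates 1, 2, and 3 (all genes: 7.42%, 9.38%, and 9.97%), and with library size only 6 were lower and 1 was higher (all genes: 8.56% and 24.0%). *Bysl* encodes bystin, which is needed for late cuts of the precursor of the small subunit. It was at 20.4 and 20.2 CPM in the WT libraries and at 11.3, 11.2, and 11.2 CPM in the *Adam17*-/- libraries. Libraries of the same group were nearly equal, and the log2 fold change was -0.85 ± 0.104 (SE, adjusted p = 0.000711 from edgeR). Its counts were not whole numbers, and 361 of its 3854 exonic bases in the GENCODE annotation also lie in exons of *Ccnd3* on the other strand. Whether the counting used the strand is not given in the sources used here.

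*Rrp12* encodes a factor of nuclear export of the subunits. It was at 17.3 and 12.8 CPM in the WT libraries and at 8.05, 8.88, and 8.53 CPM in the *Adam17*-/- libraries. The WT libraries differed from each other, but both lay above every *Adam17*-/- library, with a log2 fold change of -0.83 ± 0.150 (SE, adjusted p = 0.00377 from edgeR). *Tsr1*, a GTPase-like protein of the late precursor of the small subunit and 1 of the genes whose E-box is printed above, was at 24.3 and 25.9 CPM in the WT libraries and at 16.5, 17.1, and 17.8 CPM in the *Adam17*-/- libraries. WT replicate 2 was the higher of its pair here, and the log2 fold change was -0.55 ± 0.0996 (SE, adjusted p = 0.00385 from edgeR). Of its 3389 exonic bases, 1159 overlap exons of *Srr* on the other strand.

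*Ltv1*, an adaptor that leaves the small subunit late in assembly, had the highest level per length of the role (mean FPKM 21.0). It was at 40.2 and 44.2 CPM in the WT libraries and at 32.7, 31.0, and 33.0 CPM in the *Adam17*-/- libraries. The groups did not overlap, and the log2 fold change was -0.39 ± 0.0910 (SE, adjusted p = 0.0116 from edgeR), which did not pass in 7 of 15 other analyses (adjusted p up to 0.0836). *Heatr1* and *Utp4*, scaffold proteins that join the precursor early and link it to transcription, had log2 fold changes of -0.44 and -0.43. *Utp15*, from the same early complex, was at 0.01 and did not pass. *Utp20*, *Nob1*, *Wdr43*, *Nat10*, and *Dhx37* were also lower, at -0.54 to -0.30. Of the 15 other analyses, *Utp20* passed in 13, *Wdr43* in 8, *Nob1* and *Dhx37* in 4 each, and *Nat10* in 3. *Nop14* and *Pno1* (-0.33 each, adjusted p = 0.0507 and 0.141 from edgeR) and *Noc4l* (-0.16) did not pass. They passed as lower in 2, 1, and 1 of the 15 other analyses, where *Pno1* ranged from -0.53 to -0.10. *Riok1*, a kinase of late assembly, was at 26.3 and 27.5 CPM in the WT libraries and at 30.9, 32.9, and 29.7 CPM in the *Adam17*-/- libraries, with every *Adam17*-/- library above both WT libraries, and the log2 fold change of 0.21 did not pass (adjusted p = 0.117 from edgeR).

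Of the 15 genes for the large subunit, 10 were lower, 0 were higher (0 also at an unadjusted p under 0.05 and by DESeq2), and 5 did not pass. The lower genes numbered 4, 3, and 4 without *Adam17*-/- replicates 1, 2, and 3 (all genes: 7.42%, 9.38%, and 9.97%), and with library size only 3 were lower and 1 was higher (all genes: 8.56% and 24.0%). *Bop1*, *Pes1*, and *Wdr12* encode the 3 proteins of the PeBoW complex, which is needed to process the precursor of the large subunit. *Bop1* was at 54.2 and 38.0 CPM in the WT libraries and at 24.4, 24.6, and 25.3 CPM in the *Adam17*-/- libraries. The WT libraries stood apart from each other by more than in most of the 47 genes, and both were above the *Adam17*-/- libraries, with a log2 fold change of -0.90 ± 0.138 (SE, adjusted p = 0.00176 from edgeR). *Pes1* fell by 0.37 on the log2 scale (adjusted p = 0.00895) and passed in 9 of the 15 other analyses. *Wdr12*, at 6.09 to 7.58 CPM in the 5 libraries, had a log2 fold change of -0.10 ± 0.148 (SE) and did not pass. Its estimate ranged from -1.28, for its most abundant transcript alone, to 0.06 in the 15 other analyses, with 0 of them past the threshold, and the share of that transcript of 2946 bases was 66.3% and 78.8% after WT coculture, against 24.8%, 66.7%, and 0 after *Adam17*-/- coculture. Differences between genes were not tested.

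*Nop2* encodes a methyltransferase that modifies a cytosine of the large ribosomal RNA. It was at 43.1 and 32.8 CPM in the WT libraries and at 21.3, 19.8, and 21.6 CPM in the *Adam17*-/- libraries. The groups did not overlap, and the log2 fold change was -0.86 ± 0.124 (SE, adjusted p = 0.00138 from edgeR). *Ppan*, which takes part in the maturation of the large ribosomal RNA, was at 36.3 and 23.3 CPM in the WT libraries and at 19.3, 18.1, and 18.3 CPM in the *Adam17*-/- libraries. The WT libraries differed from each other by more than the lower of them differed from the *Adam17*-/- libraries, and the log2 fold change of -0.68 ± 0.164 (SE, adjusted p = 0.0128 from edgeR) moved to -0.33 without WT replicate 1 and to -0.97 without WT replicate 2.

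*Noc2l* had the highest level per length of the role (mean FPKM 39.0). It was at 127 and 111 CPM in the WT libraries and at 99.2, 99.4, and 95.5 CPM in the *Adam17*-/- libraries. The change of -0.28 ± 0.0865 (SE, adjusted p = 0.0328 from edgeR) was the smallest among the genes that were lower and did not pass in 10 of 15 other analyses, and 598 of its 2867 exonic bases overlap exons of *Samd11* on the other strand. *Nle1* (-0.59), *Rrs1* (-0.47), *Gnl3* (-0.38), *Ftsj3* (-0.32), and *Mdn1*, the large ATPase that pulls assembly factors off the particle (-0.38), were also lower. Of the 15 other analyses, *Nle1* passed in 4, *Rrs1* in 6, *Gnl3* and *Ftsj3* in 7 each, and *Mdn1* in 8. The change of *Nle1* moved to -0.34 (adjusted p = 0.222) without WT replicate 1. *Nop16*, *Wdr74*, *Noc3l*, and *Rrp1b* had log2 fold changes of -0.21 to 0.12 and did not pass.

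For each of the 31 genes that were lower, the 3 *Adam17*-/- libraries all lay below both WT libraries. Over the 47 genes this held for 35, the reverse order held for *Riok1* and *Rrp1b*, and the groups overlapped for 10, while over all genes tested *Adam17*-/- libraries lay below WT libraries in 29.7%. The mean log2 CPM of the 47 genes was 5.04 and 4.95 for WT coculture, against 4.61, 4.62, and 4.60 for *Adam17*-/- coculture, and their sum was 2189 and 2097 CPM against 1673, 1710, and 1687 CPM. The larger spread was between the WT libraries. WT replicate 1 was above WT replicate 2 in 32 of the 47 genes, with a median log2 difference of 0.12, against 55.0% of all genes and a median of 0.04. For 0 of the 31 genes was the difference between the WT libraries larger than the change between the groups, though for *Ppan* they were close (0.63 against 0.68). The test that called the 31 genes favours this and the order of their libraries, so neither adds support. The 47 genes were of moderate level, with middle values of 15.5 to 38.8 CPM, and among the 2618 genes tested in that range 17.6% were lower, against 16 of the 23 genes of the set that lie in it.

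The counts depended on how the libraries were scaled. With library size in place of TMM factors, 16 of the 47 genes were lower and *Riok1* and *Rrp1b* were higher, where 8.56% of all genes were lower and 24.0% higher. In the limma fits on log2(FPKM + 0.1) and log2(FPKM + 1), which change the test as well as the scaling, 16 and 15 were lower and *Riok1* was higher. Over all genes, the median under these settings was 0.16, 0.15, and 0.11 on the log2 scale, and that of the 47 genes was -0.23, -0.23, and -0.22. Relative to all genes, the median of the set was -0.44 to -0.33 in all 15 other analyses and -0.39 as reported. All 31 genes kept a negative fold change in these 15 analyses, and 11 passed in each of them: *Polr1a*, *Fbl*, *Rrp9*, *Ddx21*, *Mybbp1a*, *Heatr1*, *Bysl*, *Rrp12*, *Tsr1*, *Bop1*, and *Nop2*.

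**Figure D4:**
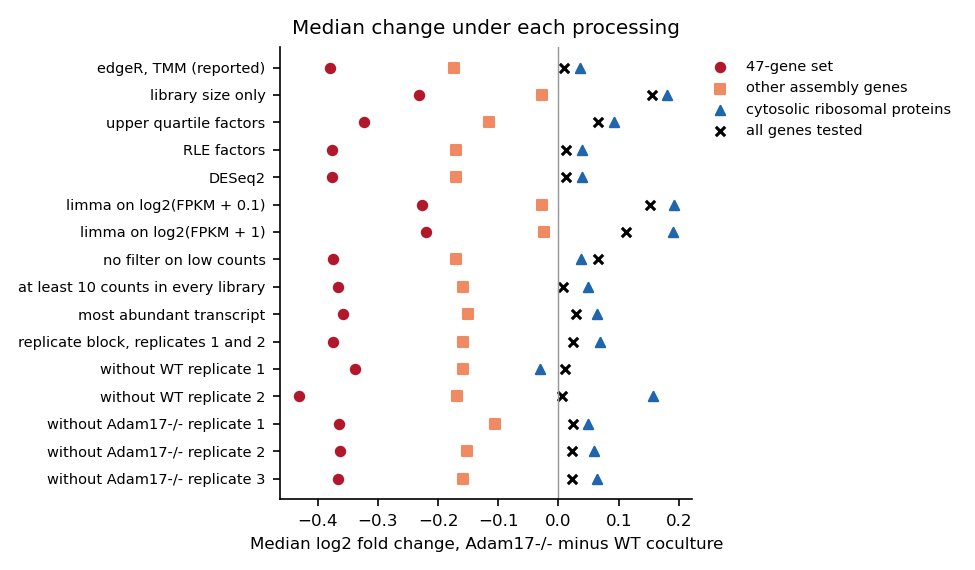
Median log2 fold change (x axis, *Adam17*-/- minus WT coculture) of the 47 genes, of 107 other assembly genes, of 79 ribosomal protein genes, and of all genes tested, under the reported analysis and 15 others (y axis). The median of the 47 genes lies between -0.43 and -0.22 and left of the median of all genes in each of them.

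The rest of the pathway was read from a list of 107 other genes of ribosome assembly, all of which were tested. Of these, 32 were lower, 7 were higher, and 68 did not pass, and the median was -0.17 on the log2 scale. Their shares of 29.9% lower and 6.54% higher stand beside 16.8% and 14.9% over all genes. Without *Adam17*-/- replicates 1, 2, and 3, 8, 11, and 15 were lower and 2, 2, and 5 were higher, where 7.42%, 9.38%, and 9.97% of all genes were lower. With library size alone, 9 were lower and 12 higher, where over all genes 8.56% were lower and 24.0% higher. The median relative to all genes was -0.24 to -0.13 in the 15 other analyses. By role, 4 of 8 snoRNP proteins were lower and 0 higher (0 also at an unadjusted p under 0.05 and by DESeq2), 16 of 47 large subunit factors were lower and 4 higher, 10 of 41 small subunit factors were lower and 2 higher, and 2 of 11 further factors of RNA polymerase I and the ribosomal DNA were lower and 1 higher. The last of these had a positive median (0.07, with 8 of 11 above 0). Without *Adam17*-/- replicate 1 the lower genes of these roles numbered 2, 4, 1, and 1, in the same order. Of the small subunit factors, 1 was lower without *Adam17*-/- replicate 2, and with library size only 1 was lower and 4 were higher.

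The lowest of the 107 were *Zfp593*, a factor of the late large subunit (log2 fold change -1.16, from 5.47 ± 0.773 to 2.46 ± 0.295 CPM as mean ± SD, n = 2 and 3, adjusted p = 0.00278 from edgeR), *Grwd1*, a chaperone that carries a ribosomal protein (-0.89), and *Tcof1*. *Tcof1* encodes treacle, a partner of UBTF in ribosomal RNA transcription, and it was at 101 and 89.9 CPM in the WT libraries and at 56.5, 59.2, and 56.8 CPM in the *Adam17*-/- libraries (log2 fold change -0.73, adjusted p = 0.000641 from edgeR). The highest were *Krr1*, a factor of the early small subunit, *Taf1d*, a subunit of the selectivity factor that brings RNA polymerase I to its promoter, and the helicase *Ddx55*. *Krr1* was at 46.7 and 50.9 CPM in the WT libraries and at 78.7, 77.2, and 65.0 CPM in the *Adam17*-/- libraries, the opposite order to *Tcof1*, with a log2 fold change of 0.59 (adjusted p = 0.00361 from edgeR). *Taf1d* and *Ddx55* rose by 0.52 and 0.50 on the log2 scale, and they passed in 15 and 13 of the 15 other analyses. Genes of the same pathway were therefore found in both directions in these libraries.

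**Figure D5:**
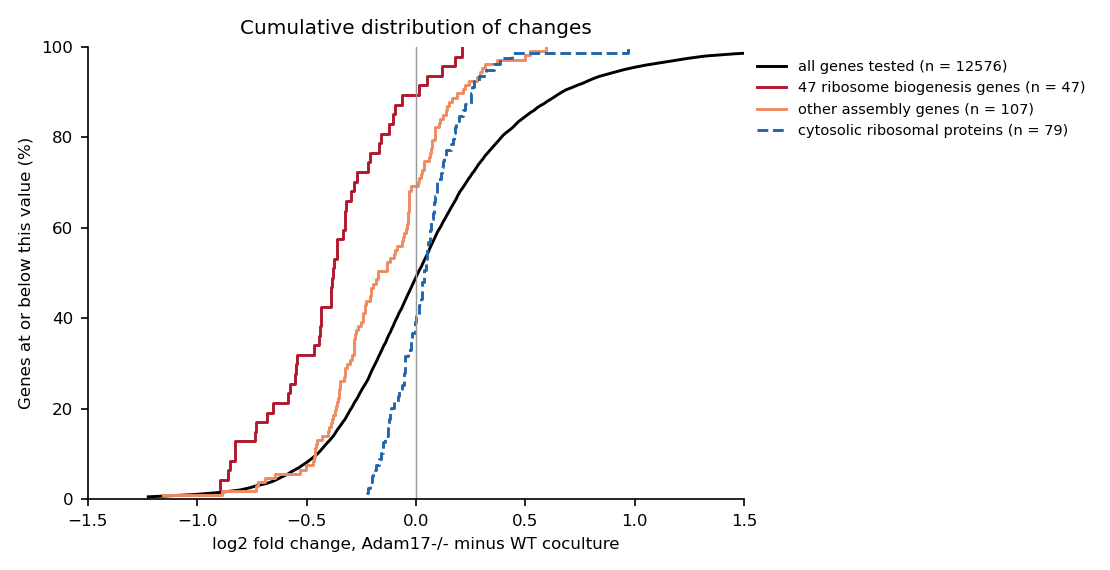
Cumulative share of genes (y axis, percent) at or below each log2 fold change (x axis, *Adam17*-/- minus WT coculture, cut at -1.5 and 1.5) for the 47 genes, 107 other assembly genes, 79 cytosolic ribosomal proteins, and all 12576 genes tested. The medians are -0.38, -0.17, 0.04, and 0.01.

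The structural proteins of the ribosome are encoded by a separate group of genes. Of 79 cytosolic ribosomal protein genes, 0 were lower and 5 were higher by edgeR, the median was 0.04 on the log2 scale, and DESeq2 also gave 0 and 5, while 5 were lower at an unadjusted p under 0.05. The share that was higher, 6.33%, stands beside 14.9% over all genes. With library size alone 0 were lower and 17 were higher, where 24.0% of all genes were higher, and the median was 0.18. The result rested on which WT library was used. The median was 0.16 without WT replicate 2 and -0.03 without WT replicate 1, where that of all genes was 0.01 in each. Without single *Adam17*-/- replicates, 0 were lower and 1 to 2 were higher. They summed to 16418 and 17817 CPM in the WT libraries and 17080 to 17581 CPM in the *Adam17*-/- libraries. The difference between the 2 lists was not tested.

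Of 10 genes tested of the MYC network, a family that includes proteins binding the E-box shown above, 2 were lower (*Myc* and *Mnt*) and 3 were higher (*Max*, *Mxd1*, and *Mga*), beside 16.8% and 14.9% of all genes, with a median of 0.03 on the log2 scale. With any 1 of the *Adam17*-/- libraries left out, 1 gene was lower and 1 was higher, and with library size only 1 was lower and 5 were higher. *Myc* was at 67.6 and 51.5 CPM in the WT libraries and at 15.7, 14.7, and 23.3 CPM in the *Adam17*-/- libraries. The groups stood far apart, with a log2 fold change of -1.73 ± 0.185 (SE, adjusted p = 0.000477 from edgeR), and *Myc* passed as lower in all 15 other analyses. *Mxd1*, which competes with MYC for MAX and represses its targets, was at 80.6 and 71.5 CPM against 130, 128, and 126 CPM, a log2 fold change of 0.75 (adjusted p = 0.000598 from edgeR). *Max* was at 0.25 (adjusted p = 0.0484) and *Mnt*, a further repressor of the family, at -0.34 (adjusted p = 0.0373), and these passed in 9 and 5 of the 15 other analyses. Whether the changes of these genes bear on those of the 47 genes was not tested.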

How the data were processed

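RNA-Seq libraries of 5 BMDM samples, 2 cocultured with WT and 3 with *Adam17*-/- 4T1 cells, were grouped by their labels. The authors sequenced polyadenylated RNA on a BGISEQ-500 platform and aligned it to GRCm38 (mm10). The submitters' processing notes name Bowtie, Bowtie2, RSEM, and DESeq2, and the paper names HISAT, but their versions and the strand setting are not given in the sources used here. Each deposited file holds raw expected counts, in which reads that fit several transcripts are divided among them, and deposited FPKM values, which the authors scaled to length and library size. The lowest FPKM listed is 0.01, and a transcript absent from a file was set to 0. Rows without a gene identifier, 9.62e-06% to 8.61e-05% of the counts of a library, were left out. Expected counts were summed per gene, rounded, filtered with filterByExpr, and scaled by TMM factors, and edgeR 4.0.16 (R 4.3.3) was run with glmQLFit and glmQLFTest and no covariates, using Benjamini-Hochberg adjustment over all 12576 genes and a threshold of 0.05. Levels per library are TMM-normalized CPM, and log2 values used a prior count of 2. FPKM values were summed per gene and used to compare levels between genes. Between 16.0% and 16.8% of the gene sums in a library were not whole within 0.005, and 37 of the 47 genes had whole counts.

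The 47 genes, their roles, the other lists, and the tests were chosen with earlier results of these data known. The genes given with values per library are the 3 with the largest absolute log2 fold change and the 1 with the highest mean FPKM in each role, and those given with the MYC network are *Myc*, *Max*, *Mxd1*, and *Mnt*. From the other assembly genes, the 3 highest and 3 lowest that passed are given. *Riok1*, *Rrp1b*, *Ncl*, *Pno1*, *Mga*, the 2 *Npm1* transcripts, and the genes named by fold change alone were chosen after their values were seen.

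Alternatives were DESeq2 1.42.0, library size only, upper quartile and RLE factors, limma 3.58.1 on FPKM as log2 with 0.1 or 1 added, testing without the filter or with a minimum of 10 counts per library, the most abundant transcript of each gene, 2 stricter thresholds, a replicate block, and each replicate left out. On simulated counts of 12505 genes, 178 of the 200 genes with a set change and 10 others were called by edgeR, and 160 and 5 by DESeq2. RefSeq and GENCODE annotations of GRCm38 gave symbols, coordinates, and promoters, and the E-box search covered both strands, since the sequence is its own reverse complement. Python 3.11.15, pandas 2.3.3, R's data.table package, scipy 1.17.1, and matplotlib 3.10.9 were also used.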

Additional observations from a re-analysis of the deposited data

How the results depend on the processing

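The count of lower genes among the 47 was 31 and moved to 16 with library size only, 16 and 15 with log2(FPKM + 0.1) and log2(FPKM + 1), 19 with the most abundant transcript, 0 where the absolute log2 change had to reach 1, and 5 at an adjusted p under 0.001 with a log2 fold change over 0.25. The count of higher genes, 0 as reported, was 2, 1, and 1 in the library size and FPKM fits. The set's median of -0.38 was -0.23, -0.23, -0.22, and, with upper quartile factors, -0.32. For the other assembly genes, the 32 lower became 9 with library size only, 19 with upper quartile factors, 8 and 8 in the FPKM fits, 15 with the most abundant transcript, and 1 and 2 under the stricter thresholds, and the 7 higher became 12, 13, and 13 in the library size and FPKM fits and 0 under either threshold. With single replicates left out, the lower genes of the 47 numbered 15 to 34, the higher ones 0 to 1, and the median was -0.43 to -0.34, while the other assembly genes numbered 8 to 34 lower and 2 to 10 higher. Without *Adam17*-/- replicates 1, 2, and 3 the lower genes of the 47 were 15, 19, and 16 (all genes: 7.42%, 9.38%, and 9.97%, against 16.8%). Without WT replicates 1 and 2 the set's median was -0.34 and -0.43, where that of all genes was 0.01 in each. Relative to all genes, the set's median was -0.35 and -0.44 there, against -0.39 as reported. A fit that leaves 1 WT library assumes that it varies like the other group. The log2 fold change of *Polr1b*, -0.17 as reported, was 0.064 without WT replicate 1 and -0.37 without WT replicate 2. With the replicate block on replicates 1 and 2 of each group, 15 of the 47 genes were lower (all genes: 9.31%) and 0 higher, and 11 and 3 of the other assembly genes were lower and higher. The same 4 libraries without the block gave 16, 0, 15, and 5. Deviations of same-numbered libraries correlated at -0.124 and -0.0504, so the numbers were not taken as pairs. The causes of these moves were not tested, except that the fits without a library and with the block use fewer samples. The floor of 3 counts limits none of the 47 genes.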

Other observations

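Beside the assembly genes, 2 further groups of the pathway were measured. The RNA exosome trims the ends of the ribosomal RNA precursors. Of its 14 genes, 1 was lower and 0 higher by edgeR, beside 16.8% and 14.9% of all genes (0 higher also at an unadjusted p under 0.05 and by DESeq2). The median change was -0.06 on the log2 scale, and 0.09 with library size only, where that of all genes was 0.16. The gene that was lower was *Exosc10*, its nuclear exonuclease, at 74.9 and 74.1 CPM in the WT libraries and at 57.2, 54.0, and 56.9 CPM in the *Adam17*-/- libraries (log2 fold change -0.41, adjusted p = 0.00547 from edgeR), and it passed in 14 of the 15 other analyses (adjusted p up to 0.0532). Genes that carry small nucleolar RNAs in their introns and encode no protein were near the shares of all genes in the higher direction. Of 13 tested, 0 were lower and 2 were higher (15.4%, against 14.9% of all genes, and 1 to 3 with single replicates left out), with 1 lower at an unadjusted p under 0.05 and 0 by DESeq2, and the median was 0.10 (-0.05 to 0.25 in the 15 other analyses). *Zfas1* was at 13.8 and 13.1 CPM in the WT libraries and at 20.7, 19.3, and 18.9 CPM in the *Adam17*-/- libraries (log2 fold change 0.55, adjusted p = 0.00559 from edgeR), and *Snhg3* was at 10.4 and 12.6 CPM against 17.7, 17.6, and 14.3 CPM (0.52, adjusted p = 0.0220).

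Of 20 proliferation genes, 9 were higher and 5 were lower, beside 14.9% and 16.8% of all genes, and their median was 0.28 on the log2 scale. In the 15 other analyses 5 to 10 were higher and 3 to 5 lower, with the fewest higher for the most abundant transcript. The division of counts among near-identical transcripts varied between libraries of a group. The transcripts of *Nolc1*, 3659 to 3665 bases long, took shares that ranged in the *Adam17*-/- libraries from 21.1% to 67.0% for the shortest of them, while the gene sum was at 24.7 to 26.5 CPM. *Nolc1* passed as lower by its gene sum (-0.83) but not by its most abundant transcript (log2 fold change -1.02, adjusted p = 0.142 from edgeR).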
